A study of Caenorhabditis elegans with 14 samples.

Results

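Whole *Caenorhabditis elegans* hermaphrodites that carry an aggregating polyglutamine protein in muscle were compared with wild-type worms while *anc-1* was knocked down in both. The 7 samples of this comparison, of 14 in the series, were chosen by their labels: 4 of polyQ35-YFP worms on *anc-1* RNAi and 3 of wild-type worms on *anc-1* RNAi. The polyQ35-YFP worms are strain AM140, of genotype unc-54p::Q35-YFP, in which 35 glutamine repeats fused to yellow fluorescent protein are expressed from the promoter of *unc-54*, a body-wall muscle myosin gene, and the wild-type worms are strain N2. Both groups were synchronized, fed from hatching on HT115 bacteria that express double-stranded RNA of *anc-1*, washed daily to remove progeny and collected on day 6 of adulthood, so that both carry the knockdown. The other 7 samples, 4 of polyQ35-YFP worms and 3 of wild-type worms on bacteria with the empty vector (EV), are set beside the comparison. Each sample is RNA from a pool of whole worms, and the transgene acts in 1 tissue of them. AM140 is a single transgenic line, and strain and any batch of culture or library cannot be told apart here.

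Polyglutamine stretches above a length limit form aggregates, and in AM140 worms these appear in body-wall muscle with age. ANC-1 is a giant protein of the outer nuclear membrane that binds actin and, with the SUN protein UNC-84 of the inner membrane, makes up the LINC complex, a bridge between the nuclear lamina and the cytoskeleton that holds nuclei in place. The comparison asks how the RNA of the strains differs when ANC-1 is depleted in each of them.

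RNA was sequenced by CEL-Seq2, which reads the 3′ end of polyadenylated transcripts, and 5718349 to 8414290 reads fell on the listed genes in polyQ35-YFP samples, against 4934531 to 7227357 in wild-type samples. The values given are reads divided by a size factor computed over the 7 samples together, called normalized values, for the 11751 genes listed for both strains. A log2 difference is polyQ35-YFP minus wild type on log2(normalized value + 1), a scale that understates the change of genes with few reads, and a gene was called where limma's Benjamini-Hochberg adjusted p over all these genes was below 0.05. In a principal component analysis of the 7 samples the first component held 29.2% of the variance and parted the strains, with scores of 10.6 to 41.6 in polyQ35-YFP samples and -41.1 to -15.001 in wild-type samples. PolyQ35-YFP replicate 4 lay apart from the other 3, at 41.6 on the first component and -31.8 on the second. The labels only number the replicates, and the study calls them independent repeats, 3 of wild-type and 4 of polyQ35-YFP worms. How far their cultures and libraries were separate is not described further, so the spread between them may in part be technical.

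The RNAi target *anc-1* (WBGene00000140, WBcel235 chromosome I, 4321095 to 4359105) was low in both strains. Its normalized value was 43.8, 22.1, 42.1 and 21.5 in the polyQ35-YFP samples on *anc-1* RNAi and 45.2, 67.8 and 39.1 in the wild-type samples. The groups overlapped, and the log2 difference of -0.67 (standard error 0.30) did not pass the test (limma adjusted p = 0.305). Under EV, where *anc-1* was not targeted, the values, normalized over those 7 samples alone, were 315 to 432 in polyQ35-YFP samples and 343 to 414 in wild-type samples. No member of the 8-gene LINC list was called. *unc-84* had 808, 871, 869 and 904 in polyQ35-YFP samples against 1026, 1051 and 1202 in wild-type samples, groups that do not overlap, with a log2 difference of -0.34 (limma adjusted p = 0.154).

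Of the 11751 genes tested, 257 were called (2.19%), of which 93 were higher (0.791%) and 164 lower (1.4%) in polyQ35-YFP worms. The median size of the log2 difference was 1.07 among genes called higher and 1.11 among genes called lower, and 52 of the 93 and 93 of the 164 differed by a log2 of 1 or more. Values of the groups did not overlap for 86 of the genes called higher and 160 of those called lower, while over all genes tested 735 (6.25%) lay wholly above and 876 (7.45%) wholly below wild type. The count of called genes depended on single samples. Without wild-type replicate 3 it was 54 higher and 76 lower, and without wild-type replicate 1 it was 75 higher and 97 lower, while without polyQ35-YFP replicate 4 it was 98 higher and 140 lower. The authors scaled each strain alone, which sets no common scale between the strains. With that scaling the median of all genes moved to 0.19, from -0.0015 here, and the split turned to 820 higher and 124 lower. All directions below are relative to the median gene. Without limma's variance trend the count was 35 higher and 50 lower, and 38 of the 63 called genes that the naming rule gives were not called.

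**Figure D1:**
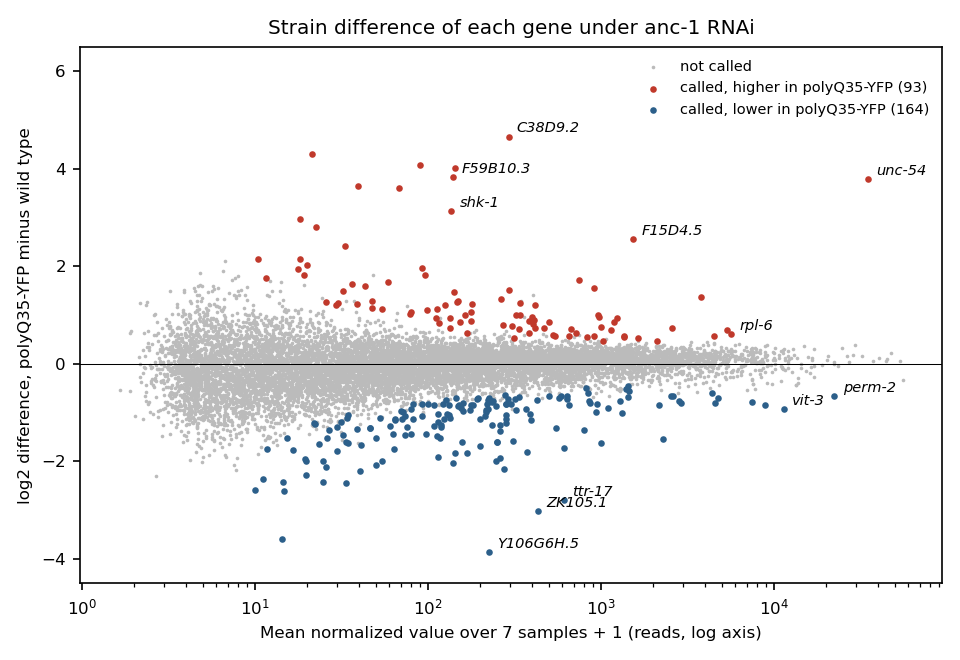
Log2 difference (polyQ35-YFP minus wild type, both on *anc-1* RNAi) of each of the 11751 genes against its mean normalized value over the 7 samples plus 1, on a log axis. Red points are the 93 genes called higher and blue points the 164 called lower; *unc-54* stands alone at the right, at a log2 difference of 3.80.

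The most abundant gene that differed was *unc-54* (WBGene00006789, chromosome I, 14855899 to 14863540), the major myosin heavy chain of body-wall muscle and the gene whose promoter drives the transgene. Its normalized value was 54322, 63522, 47919.8 and 68411 in polyQ35-YFP samples against 4624, 3809 and 4117 in wild-type samples. The groups were far apart, at 58544 ± 9180.3 (SD, n = 4) and 4183 ± 412 (SD, n = 3), a log2 difference of 3.80 (standard error 0.13, adjusted p = 2.1e-12 in limma). Reads of *unc-54* were 0.737% to 1.01% of the total in polyQ35-YFP samples, a rank of 1 to 4 among all genes, against 0.0599% to 0.0733% in wild-type samples. The transgene's own 3′ end is not described in the sources used here, and reads of a transgene transcript that ends in *unc-54* sequence cannot be told apart from those of the endogenous gene.

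No other gene of the body-wall muscle filaments was called higher. Of the 33 members measured, *unc-54* was called higher and *unc-89* lower (6.06% called, against 2.19% of all genes). The other 31 were not called, and 23 of the 33 had a log2 difference below 0. The list's median was -0.14, against -0.0015 over all genes, and turned to 0.060 with the authors' scaling per strain. *unc-89*, which encodes a giant protein of the M-line, had 137, 90.6, 102 and 126 in polyQ35-YFP samples against 242, 197 and 223 in wild-type samples. All polyQ35-YFP values lay below all wild-type values, with a log2 difference of -0.96 (standard error 0.18, limma adjusted p = 0.00412), a call lost without limma's variance trend. Under EV *unc-89* had 81.5 to 129 and 93.3 to 139 in polyQ35-YFP and wild-type samples, which overlap (log2 difference -0.14). The change of its strain difference with the treatment did not pass over all 14 samples (limma adjusted p = 0.999, unadjusted p = 0.0115). *unc-15*, the paramyosin of thick filaments, averaged 999 ± 66.2 in polyQ35-YFP samples (SD, n = 4) and 1335 ± 79.1 in wild-type samples (SD, n = 3), groups that did not overlap but missed the test (log2 difference -0.42, limma adjusted p = 0.0623). *myo-3*, the second body-wall myosin, averaged 104 ± 18.8 (SD, n = 4) and 161 ± 33.7 (SD, n = 3) in polyQ35-YFP and wild-type samples (limma adjusted p = 0.126). *unc-22*, encoding twitchin, whose span overlaps genes on both strands, was close to the limit of detection, at 1.14 to 11.4 in polyQ35-YFP samples and 7.58 to 14.7 in wild-type samples. Troponin I *unc-27* had 1152 to 1381 and 1087 to 1619, a range in wild-type samples that spans the polyQ35-YFP one. None of the 30 genes of muscle attachments, dense bodies and M-lines was called, and their median log2 difference was -0.23.

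The 4 body-wall muscle markers other than *unc-54* that were measured summed to 2255 to 2541 in polyQ35-YFP samples and 2486 to 3121 in wild-type samples, and none was called. In bulk samples fewer cells of a type and less RNA per cell cannot be told apart.

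A potassium channel gene and a pharyngeal muscle gene were also called higher. *shk-1* (chromosome II, 9758234 to 9768265), a voltage-gated potassium channel of the Shaker type that acts in muscle and neurons, had 213, 176, 253 and 237 in polyQ35-YFP samples against 27.1, 15.8 and 31.6 in wild-type samples. That is a ratio of the means of 8.84 and a log2 difference of 3.13 (standard error 0.23, limma adjusted p = 8.72e-08), in groups with a wide gap between them. It was the only called gene of 17 for muscle excitation and calcium release (5.88%, against 2.19% of all genes), whose median was -0.0045. *tni-4*, the troponin I of the pharynx, had 1492, 1675, 1142 and 1629 against 933, 787 and 727, with every polyQ35-YFP value above every wild-type value (log2 difference 0.85, limma adjusted p = 0.00149), a call lost without limma's variance trend. The 5 pharyngeal muscle markers, *tni-4* among them, summed to 1178 to 1819.7 in polyQ35-YFP samples and 818 to 1069.6 in wild-type samples. Most of each sum was *tni-4*, the only one called. The groups overlapped for *tnc-2*, *tnt-4*, *myo-1* and *myo-2*, with log2 differences of 0.37, 0.51, -0.61 and -0.24.

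**Figure D2:**
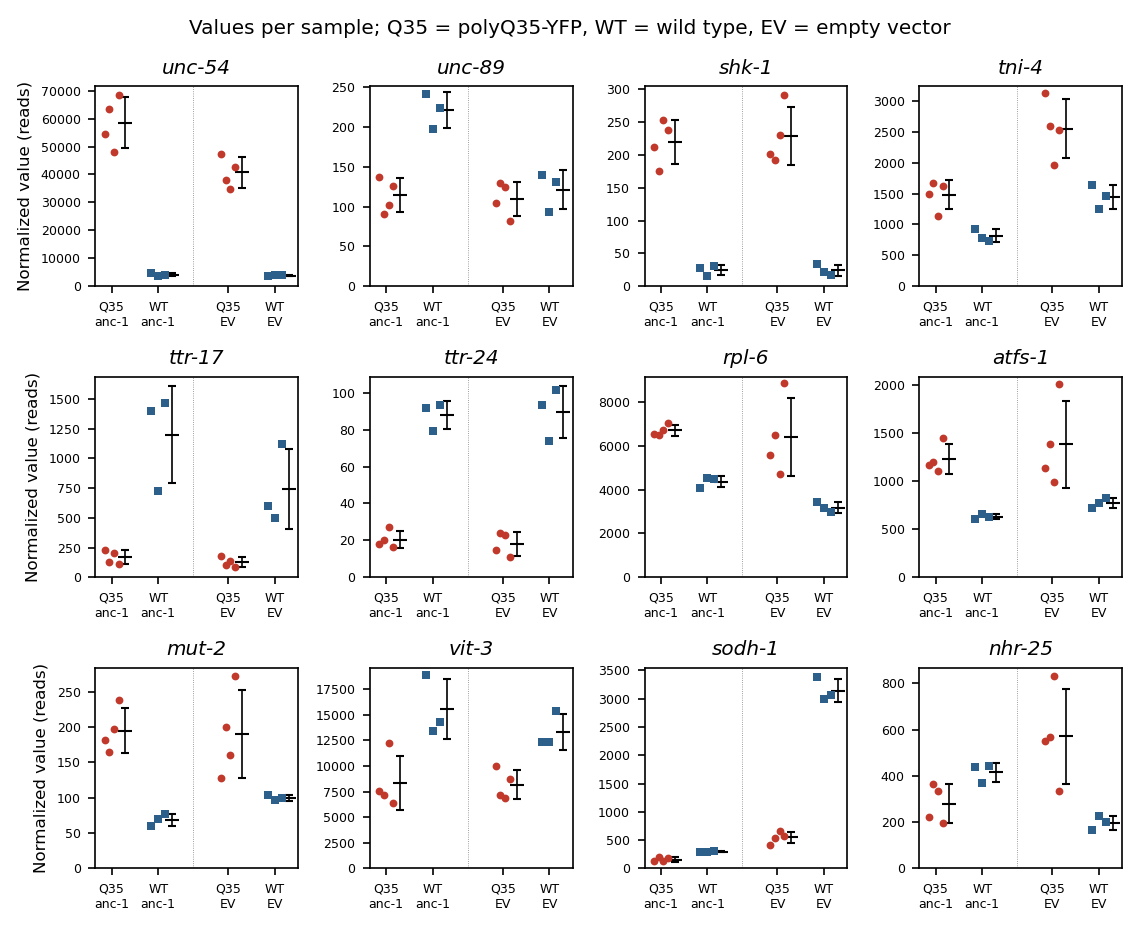
Normalized value of 12 genes in each sample, with the group mean and SD in black: polyQ35-YFP (red, n = 4) and wild type (blue, n = 3) on *anc-1* RNAi at the left of each panel and on EV at the right, normalized separately for each treatment. *unc-54*, *shk-1* and *tni-4* sit higher in polyQ35-YFP samples under either treatment, while *unc-89* sits lower on *anc-1* RNAi and overlaps under EV. The change of the *unc-89* difference with the treatment did not pass the limma test.

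The 12 genes of largest log2 difference in each direction, among called genes with a mean value of at least 20 and groups that do not overlap, are mostly known by clone names only. *C38D9.2* (chromosome V, 17567513 to 17571603) led the higher genes, at 483, 419.7, 485 and 600.5 in polyQ35-YFP samples against 27.1, 14.1 and 16.4 in wild-type samples, a log2 difference of 4.66 (standard error 0.21). *F59B10.3* had 226, 273, 232 and 199 against 12.4, 14.97 and 18.9, and *F41G4.7* had 388, 215, 131 and 218 against 22.6, 14.1 and 6.31. Both were thus low in wild-type samples and well above that in every polyQ35-YFP sample. *F15D4.5* was the gene with the smallest spread among them, at 2583, 2215, 2245 and 2521 against 399, 399 and 417 (log2 difference 2.56, standard error 0.11). *F36H12.4*, *F49F1.15*, *ZC15.3*, *F09B12.5* and *T22A3.12* followed with log2 differences of 4.08, 3.66, 3.62, 2.80 and 2.41. *F49C5.4*, newer name *nimk-1*, had 25.2 to 49.6 in polyQ35-YFP samples, and in wild-type samples it was at 0, 4.402 and 0, so that its fitted log2 difference of 4.30 depends on the pseudocount.

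Among the lower genes, *Y106G6H.5*, newer name *pdpr-1* (chromosome I, 10438075 to 10443563), had 41.4, 35.2, 31.9 and 23.1 in polyQ35-YFP samples against 452, 512 and 472 in wild-type samples, a log2 difference of -3.85 (standard error 0.20, limma adjusted p = 5.75e-10). *ZK105.1* was close to constant within polyQ35-YFP worms, at 101, 109, 110.3 and 104.9, against 986, 692 and 942 in wild-type worms (log2 difference -3.01). *F10G2.1* had 102, 107, 113 and 117 against 473, 423 and 595, and *Y71H2B.4* had 49.5, 66.4, 60.3 and 60.3 against 217, 254 and 264. Each of these 4 genes was 4.14-fold to 14.6-fold lower by the ratio of the means. *T04A6.1*, *T28A11.2* and *D1086.1* had log2 differences of -2.45, -2.1996 and -1.99. *pud-3*, *F57H12.6* and *C04E12.2*, at -2.42, -2.12 and -1.99, lost the call without wild-type replicate 3 (limma adjusted p up to 0.0651, 0.128 and 0.0995 over the omissions), and *F57H12.6* lost it without wild-type replicate 1 also. The other 21 of these 24 genes kept the call in each of the 7 omissions. Without limma's variance trend *pud-3*, *F57H12.6*, *C04E12.2*, *F09B12.5* and *T22A3.12* were not called. *F36H12.4* overlaps a gene on the opposite strand, and *C04E12.2*, *T22A3.12* and *F49C5.4* overlap a gene on the same strand.

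**Figure D3:**
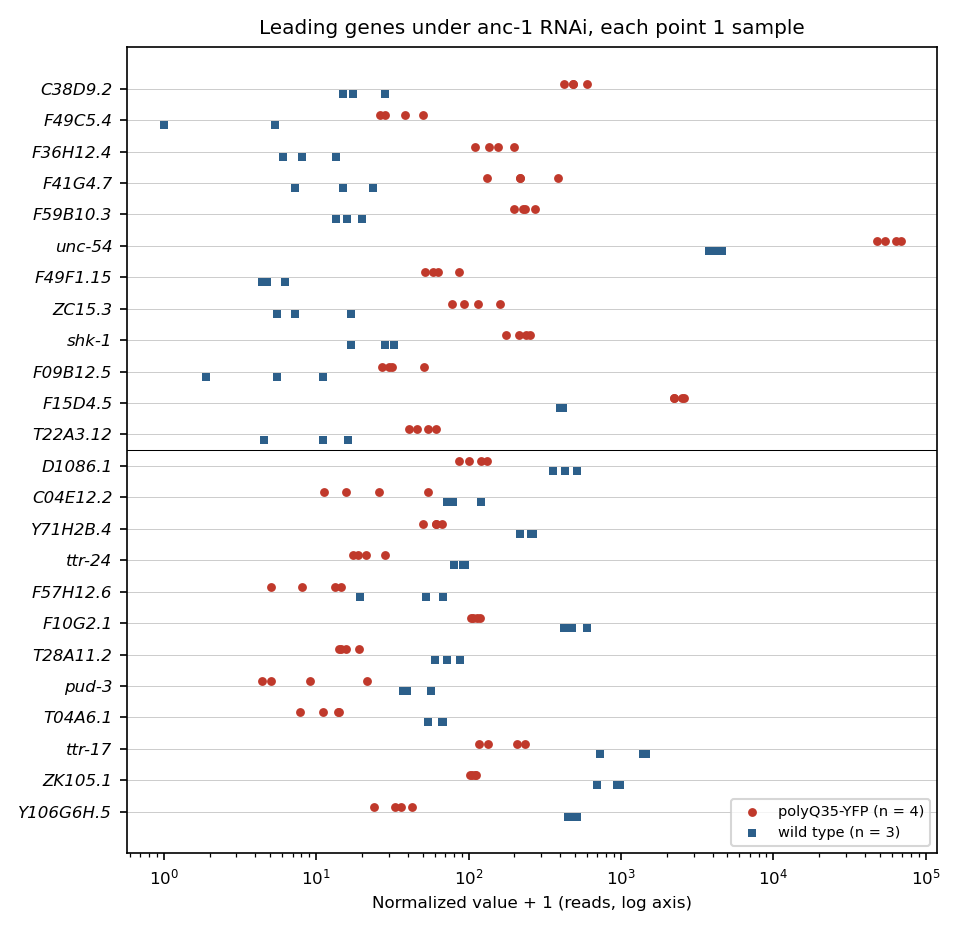
Normalized value plus 1, on a log axis, of the 12 leading higher genes (upper block) and the 12 leading lower genes (lower block) in each sample on *anc-1* RNAi. Red circles are polyQ35-YFP samples and blue squares wild-type samples; the groups do not overlap in any row, which the rule for choosing these genes requires.

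The family with the most called members was that of the transthyretin-like genes, which encode small, mostly secreted proteins related to the vertebrate hormone carrier transthyretin. Of 46 members measured, 11 were called lower (23.9%, against 1.4% of all genes called lower) and none higher, 20 had groups that did not overlap in the lower direction (43.5%, against 7.45% of all genes), and 41 had a log2 difference below 0. The median was -0.58, and it stayed between -0.63 and -0.39 under the other scalings. *ttr-17* (chromosome IV, 11066006 to 11067072) had 232, 133, 206 and 116 in polyQ35-YFP samples against 1402, 729 and 1469.7 in wild-type samples, a log2 difference of -2.79 (standard error 0.24, limma adjusted p = 1.14e-06). *ttr-24* had 17.9, 20.1, 27.3 and 16.5 against 91.5, 79.2 and 93.4, and its neighbour *ttr-25* had 4.87, 8.05, 4.55 and 9.09 against 32.8, 35.2 and 36.6. The groups were far apart for all of these. The other called members, named after their values were seen, were *ttr-2*, *ttr-3*, *ttr-5*, *ttr-6*, *ttr-8*, *ttr-16*, *ttr-38* and *ttr-54*, with log2 differences of -1.73 to -0.65. The called members lay on chromosomes III, IV, V and X and ranged in level up to *ttr-2*, which averaged 2069 and 3217 in polyQ35-YFP and wild-type samples. The count of called members was 7 without polyQ35-YFP replicate 4, without wild-type replicate 2 or without wild-type replicate 3, and 8 to 11 in the other omissions. Members of this family resemble each other in sequence, and reads that could map to more than 1 of them leave single values uncertain.

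Vitellogenins, the yolk proteins, are made in the intestine and loaded into oocytes through the receptor RME-2. Of the 7 vitellogenin and receptor genes measured 2 were called lower (28.6%, against 1.4% of all genes), 6 were below 0 and the median was -0.41. *vit-3* had 7537, 7205, 12279 and 6381 in polyQ35-YFP samples against 18918, 13462 and 14327 in wild-type samples, groups that nearly touch (log2 difference -0.93, limma adjusted p = 0.00553, and 0.0631 without wild-type replicate 1). *vit-1* averaged 689 ± 72.9 (SD, n = 4) and 1051 ± 221 (SD, n = 3), and its call was lost in 3 of the 7 omissions, and both calls were lost without limma's variance trend. *vit-3*, *vit-4* and *vit-5* are near-identical copies, so the share of reads between them is uncertain, and the uncalled *vit-4* and *vit-5* stood at -0.43 and -0.32. Markers of intestine summed to 1549 to 2095 in polyQ35-YFP samples and 1694 to 2381 in wild-type samples, with none of 6 called, and those of oocytes to 72048 to 91871 and 64146 to 83536.

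Further secreted and lipid-binding proteins were among the lower genes, in families chosen after their values were seen. Of the 16 *far* and *lbp* genes, which encode proteins that carry fatty acids and retinol, 5 were called lower (31.2%, against 1.4% of all genes) and none higher. *lbp-2* had 1328, 1268, 1433 and 1015 in polyQ35-YFP samples against 4050.2, 2987 and 4033 in wild-type samples, and the abundant *far-2* had 6234, 6290.5, 7387 and 6916 against 10397, 12238 and 13302. The groups were apart for both, with log2 differences of -1.55 and -0.83 (standard errors 0.14 and 0.11). *far-1*, *far-6* and *lbp-3* had -0.80, -1.61 and -1.11. The lipase-related neighbours *lips-11* and *lips-12* had -1.93 and -1.81, and *pud-4*, whose annotated span in the files overlaps that of *pud-3*, had -1.68. *ppt-1*, the worm form of the lysosomal enzyme palmitoyl-protein thioesterase, had 6.49, 5.03, 2.28 and 1.65 against 28.2, 19.4 and 32.8 (log2 difference -2.61, limma adjusted p = 0.00204). These values rest on few reads. How the calls in this paragraph fared in the omissions or without limma's variance trend is not given here. Of all 164 genes called lower, 43 were also called lower without that trend.

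Genes of defence against microbes moved in both directions. Of 58 C-type lectins, *clec-190* was called higher and *clec-47*, *clec-83* and *clec-218* lower (6.90% called, against 2.19% of all genes). *clec-47* had 39.8, 47.3, 45.5 and 32.2 in polyQ35-YFP samples against 102.8, 105.7 and 138 in wild-type samples, and kept its call in every omission, while the other 3 lost theirs in 3 to 5 of 7. Of 23 saposin-like genes, whose products include pore-forming peptides, *spp-23* was higher, at 189.9, 264, 234 and 223 against 121, 81.0 and 125, and *spp-15* was lower, at 51.9, 55.4, 53.5 and 45.4 against 213, 158 and 219.7. Both pairs of groups were apart, with log2 differences of 1.07 and -1.90 (limma adjusted p = 0.00194 and 4.74e-06). *spp-5* was also called lower, at -0.45, and lost its call in 5 of 7 omissions (13.04% of the list called, against 2.19% of all genes). Among 34 antimicrobial peptide genes *abf-2* was called higher at 0.86 and *cnc-6* and *fip-5* lower at -1.05 and -0.93, of which only *fip-5* kept its call in all 7 omissions (8.82% of the list called, against 2.19% of all genes). The lysozyme *lys-4* had 51.2 to 85.6 in polyQ35-YFP samples and 128 to 198 in wild-type samples (log2 difference -1.27, limma adjusted p = 0.00172). It was the single call among 13 lysozymes (7.69%, against 2.19% of all genes). *lys-7* had 1123 to 1413 and 780.3 to 1432. Of 12 galectins, which bind sugars on cell surfaces, *lec-5* and *lec-10* were called lower (16.7%, against 1.4% of all genes) at -1.13 and -0.66, and the second lost its call in 4 of 7 omissions. The metallothionein *mtl-2* had 683, 805, 937 and 789.6 against 1612, 1396 and 1465 and was lower at -0.90 (limma adjusted p = 0.000273). Of the calls in this paragraph *clec-47* and *spp-15* alone held without limma's variance trend.

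None of the 22 genes of the intracellular pathogen response was called, although 16 of them were below 0 (12 with the authors' scaling per strain), and *cul-6* of that response was close to the limit of detection, at 3.30 to 9.06 in polyQ35-YFP samples and 6.31 to 18.1 in wild-type samples. Its partner *skr-5* had 69.4 to 152 and 98.6 to 139. The infection-related *dod-24* was called higher at a log2 difference of 2.15 from few reads, with 6.83 to 21.1 in polyQ35-YFP samples and 1.26 to 4.52 in wild-type samples, and lost the call in 4 of 7 omissions. Single members were called in other detoxification and surface families. *cyp-14A3* of 48 cytochrome P450 genes (2.08% called) and *col-183* of 92 cuticle collagens (1.09%) were higher at 1.64 and 1.23. *gsto-3* of 28 glutathione transferases (3.57%) was lower at -1.64. Over all genes 2.19% were called, so single calls say little of these families. Each of the 3 genes lost the call in 3 to 6 of 7 omissions. These 3 calls and that of *dod-24* were lost without limma's variance trend.

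Few genes were called in the stress responses that a misfolded protein can engage. With 2.19% of all genes called, lists of this size would hold few calls by that share alone. No gene was called among 15 of the heat shock response and small heat shock proteins, 26 cytosolic chaperones, 23 genes of the unfolded protein response of the endoplasmic reticulum, 33 proteasome subunits, 30 components of SCF ubiquitin ligases, 60 MATH and BTB genes, 11 T-box factors or 29 autophagy genes. *hsp-16.2*, a small heat shock protein, had 26.8, 23.1, 20.5 and 10.7 in polyQ35-YFP samples against 18.1, 22.9 and 11.4 in wild-type samples. The reporters *hsp-4* of the endoplasmic reticulum and *hsp-6* of mitochondria had 3266 to 3545 and 2269.6 to 2635 in polyQ35-YFP samples, against 2864 to 3251 and 2169 to 2452 in wild-type samples, with log2 differences of 0.15 and 0.09 (standard errors 0.10 and 0.11). *cul-1*, a scaffold of SCF ligases, was at 459.6 to 599 and 504 to 561. All 33 proteasome subunits had a log2 difference above 0, between 0.038 and 0.30, and 7 of them had groups that did not overlap (21.2%, against 6.25% of all genes wholly above), but with scaling by library size 31 were above 0.

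*atfs-1*, the transcription factor that activates the mitochondrial unfolded protein response, was the exception. Its normalized value was 1165, 1199.7, 1111 and 1454 in polyQ35-YFP samples against 602, 661 and 633 in wild-type samples, with a wide gap between the groups, a ratio of the means of 1.95 and a log2 difference of 0.96 (standard error 0.12, limma adjusted p = 9.62e-05). It was the only called gene of the 15 of that response (6.67%, against 2.19% of all genes), whose median was 0.20. Of 188 F-box genes, which give SCF ligases their specificity, *fbxb-97*, *fbxb-56* and *fbxa-139* were higher at 2.97, 1.56 and 1.15 and *fbxa-60* was lower at -0.75 (2.13% called, near the 2.19% of all genes). *fbxb-56* had 1206, 893, 1697 and 1303 against 356, 545 and 388, and *fbxb-97* had 28.4, 25.2, 30.7 and 28.9 against 2.26, 3.52 and 2.53. Both kept the call in each omission, while *fbxa-139* and *fbxa-60* lost it in 4 of 7, and without limma's variance trend *fbxb-97* alone of the 4 was called.

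Genes of translation lay slightly above the median gene. Of 79 cytosolic ribosomal protein genes 75 had a log2 difference above 0 and the median was 0.25. Only *rpl-6* was called (1.27%, against 2.19% of all genes). It had 6542, 6502, 6709 and 7048 in polyQ35-YFP samples against 4094, 4520.3 and 4500.1 in wild-type samples (log2 difference 0.62, limma adjusted p = 0.00154). The *rpl-6* call was lost in a fit of all 14 samples (limma adjusted p = 0.054) and without limma's variance trend. Of 63 mitochondrial ribosomal protein genes 53 were above 0 with a median of 0.17. Among them *mrps-16* alone was called (1.59%, against 2.19% of all genes), at 318 to 419.6 against 201 to 225. Its annotated span overlaps another gene on the same strand, and its call was lost without the variance trend. None of the 51 genes of the respiratory chain and ATP synthase was called.

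Genes of germline RNA silencing included 3 called higher of 36 Argonaute and feeding RNAi genes (8.33%, against 0.791% of all genes). *mut-2*, a nucleotidyltransferase needed for RNA interference and transposon silencing, had 182, 164, 197 and 238 in polyQ35-YFP samples against 59.9, 69.6 and 77.0 in wild-type samples. The groups were far apart, with a log2 difference of 1.48 (standard error 0.18, limma adjusted p = 5.16e-05), kept in every omission. The Argonautes *ppw-2* and *wago-4* had 939 to 1682 and 624 to 1098 in polyQ35-YFP samples against 592 to 783 and 473 to 486 in wild-type samples, and each lost the call in 3 of 7 omissions and, unlike *mut-2*, without limma's variance trend. The count was 1 of 36 without wild-type replicate 1 or 3, and *mut-2* overlaps a gene on the opposite strand. Of 29 germline and P granule genes 28 were above 0 with a median of 0.33. The only one called was *htp-2*, a protein of the meiotic chromosome axis (3.45%, against 2.19% of all genes). Its log2 difference was 0.53, and its call was lost in each of the 7 omissions and without the variance trend. The 7 germline markers, all above 0 and none called, summed to 6586, 6063, 6935 and 9130.1 in polyQ35-YFP samples against 5363, 6115 and 5264 in wild-type samples, highest in polyQ35-YFP replicate 4, and the part of germline amount in these differences was not tested.

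Of 121 neuropeptide and insulin-like genes 92 had a log2 difference below 0 and the median was -0.33. Only *nlp-16* was called (0.826%, against 2.19% of all genes), a call lost in 4 of 7 omissions. It had 81.9 to 109.7 in polyQ35-YFP samples and 135 to 184 in wild-type samples. The 8 neuronal markers summed to 9953, 10173, 10248 and 8769.9 in polyQ35-YFP samples against 10436, 10939 and 11360.0 in wild-type samples, groups that do not overlap, with none called, and the part of neuron amount was not tested. In the other direction, and chosen after their values were seen, the synaptotagmin *snt-3* was higher at 145, 151, 158 and 132 against 74.5, 58.1 and 66.9 (log2 difference 1.13), and *rimb-1*, of the presynaptic active zone, at 0.83. The omissions and the fit without limma's variance trend are not given for *snt-3* and *rimb-1*. *perm-2*, a protein of the eggshell and the most abundant gene called lower, had 17670.3, 13985, 18265 and 22144 against 25719, 30882 and 28161 (log2 difference -0.66, limma adjusted p = 0.0109), a call lost without wild-type replicate 2 or 3 (adjusted p up to 0.0742 in limma). It was the only call among 35 eggshell and oocyte genes (2.86%, against 2.19% of all genes). Of these 35 genes 23 were above 0, and their median was 0.10. *grd-4* and *cpz-1* were lower at -0.93 and -0.83, the first with its call lost in 5 of 7 omissions and the second without wild-type replicate 3. Each was the only call of its list, of 43 hedgehog- and patched-related genes (2.33%) and of 30 aspartyl and cathepsin proteases (3.33%). Without limma's variance trend *nlp-16*, *perm-2*, *grd-4* and *cpz-1* were not called. Hypodermis markers overlapped between the strains, at 1408 to 2232 and 1764 to 1957.

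**Figure D4:**
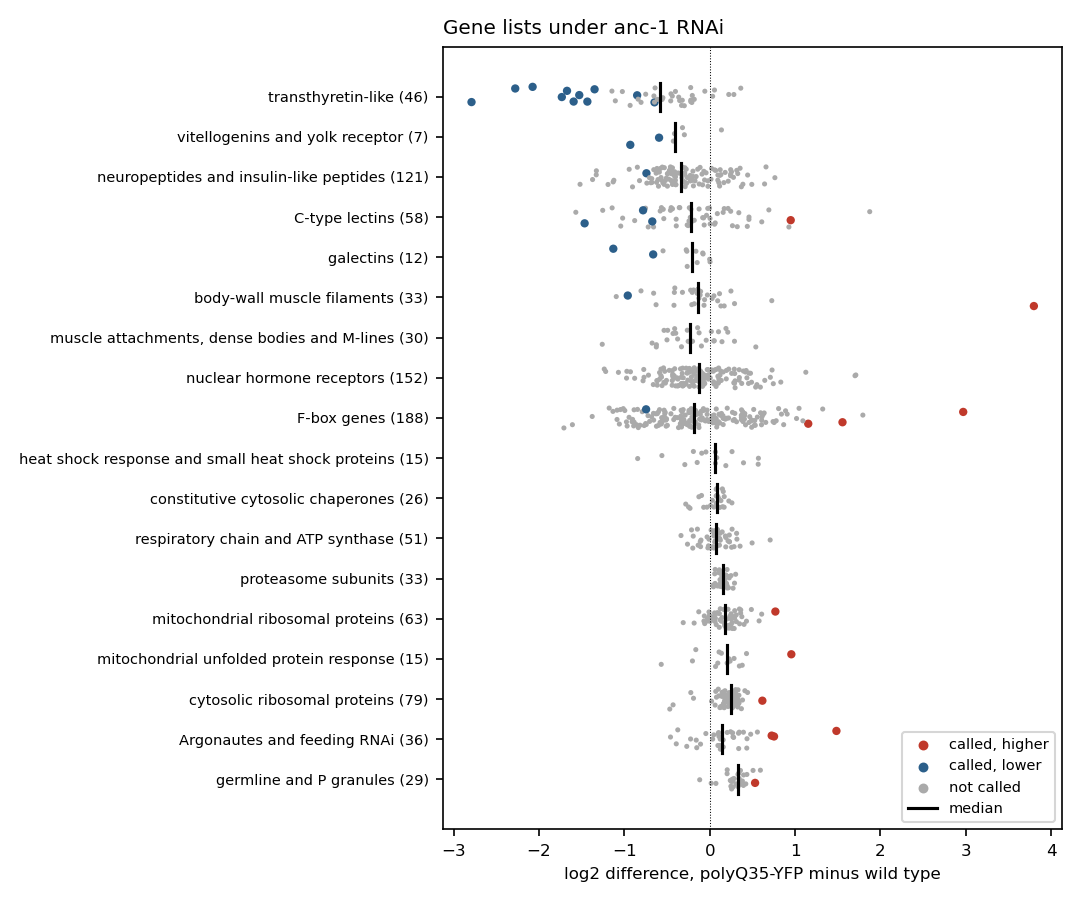
Log2 difference (polyQ35-YFP minus wild type, both on *anc-1* RNAi) of each measured member of 18 gene lists, with the number of members in brackets. Red and blue points are members called higher and lower, grey points were not called, and the black bar is the list's median, which runs between -0.58 for transthyretin-like genes and 0.33 for germline and P granule genes.

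Called genes often had a neighbour called in the same direction. Within 20000 bases of the start of 24 of the 93 genes called higher (25.8%) another gene called higher began, while 3.68% of all tested genes lay that near to one. For genes called lower the numbers were 41 of 164 (25%) and 6.45%. The pairs include *ttr-16* and *ttr-17*, *ttr-24* and *ttr-25*, *lips-11* and *lips-12*, *far-1* and *far-2*, *lbp-2* and *lbp-3*, and *F15D4.5* and *F15D4.6*. The distance was chosen after the data were seen, many of the pairs are related in sequence, and no test was made. Among the nuclear chromosomes the share called higher was lowest on X, at 7 of 1651 (0.424%), while the share called lower ran between 1.02% on chromosome II and 1.85% on chromosome V.

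The same strains were compared under EV, in 7 samples that this comparison does not use. There limma called 98 genes (0.834%), 49 higher and 49 lower (0.417% each). Of the 93 genes called higher on *anc-1* RNAi, 39 were called higher under EV (41.9%, or 79.6% of the EV genes), and of the 164 called lower, 38 were called lower under EV (23.2%, or 77.6% of the EV genes). None was called in the opposite direction. All of the 93 were above 0 under EV and 157 of the 164 (95.7%) below it, against 51.4% and 48.6% of all genes. Each repeat of a strain held both treatments, by the series' design text, and a shared batch was not tested. The 24 leading genes included 21 that were called alike under EV, all 12 of the higher and 9 of the lower ones. *C38D9.2* had 452 to 702 in polyQ35-YFP and 12.7 to 22.1 in wild-type samples under EV (log2 difference 4.83), and *unc-54* had 34851 to 47477 and 3746 to 3915 (3.39). The EV counts rest on single samples, with 159 higher and 87 lower without polyQ35-YFP EV replicate 4, 27 and 24 without polyQ35-YFP EV replicate 2, and 27 and 18, 30 and 29, and 27 and 20 without wild-type EV replicates 1, 2 and 3.

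**Figure D5:**
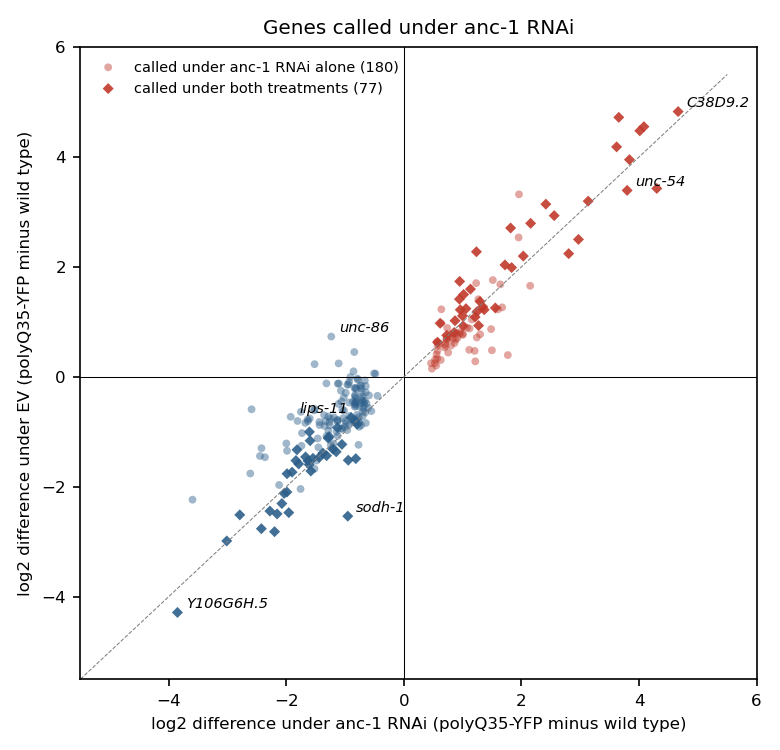
Log2 difference (polyQ35-YFP minus wild type) of the 257 genes called on *anc-1* RNAi, with the value on *anc-1* RNAi across and the value under EV upward; diamonds are the 77 genes called under both treatments and the dashed line marks equal values. All red points (called higher) lie above 0 under EV, and 157 of the 164 blue points lie below it.

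Whether the strain difference itself changed with the treatment was tested as the interaction of strain and treatment over all 14 samples. No gene passed (limma, 0 of 11751), with 432 at an unadjusted p below 0.05, 1 gene called by edgeR and 2 by DESeq2. The lowest adjusted p was that of *sodh-1*, an alcohol dehydrogenase, at 0.0516. It had 125, 193, 121 and 184 in polyQ35-YFP samples against 294, 286 and 308 in wild-type samples on *anc-1* RNAi, and 417, 545, 654 and 575 against 3380.0, 2995 and 3060.2 under EV, lower in polyQ35-YFP worms in either case (log2 differences -0.95 and -2.54, interaction 1.59). It passed in edgeR (adjusted p = 0.0279) and in DESeq2 (adjusted p = 5.49e-06), and *sodh-1* overlaps a gene on the opposite strand. Its call on *anc-1* RNAi was lost without limma's variance trend. With the repeat as a block within each strain, as the series' design pairs the treatments, 6 genes passed in limma. These were *sodh-1* and, named after their values were seen and with a strain difference that was lower on *anc-1* RNAi than under EV, *nhr-25*, *dpy-14*, *dpy-17*, *sym-1* and *wrt-10*. *nhr-25*, a nuclear receptor of the epidermis and molting, had 221, 366, 337 and 197 in polyQ35-YFP samples against 438, 368 and 442 in wild-type samples on *anc-1* RNAi, and 551, 566, 834 and 333 against 168, 228 and 198 under EV. Wild-type samples were thus below all polyQ35-YFP samples under EV. On *anc-1* RNAi they lay above, but the groups nearly touched, at 368 against 366, and *nhr-25* was not called there. The interaction was -2.07 (limma adjusted p = 0.0932 without the block and 0.000695 with it). In DESeq2 without the block *nhr-25* passed also (adjusted p = 0.000196). *dpy-14* and *dpy-17* encode cuticle collagens and *wrt-10* a hedgehog-related protein. *wrt-10* had 539 to 876 in polyQ35-YFP and 601 to 942 in wild-type samples on *anc-1* RNAi, and 803 to 1621 and 416 to 568 under EV. Without replicate 4 of polyQ35-YFP worms in both treatments, a choice made after seeing the data, 14 genes passed.

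The 7 genes called lower on *anc-1* RNAi whose value under EV was above 0 were *unc-86*, *R03H10.6*, *cutl-8*, *W09G12.7*, *E03H4.8*, *Y39B6A.33* and *mec-8*, named after their values were seen. *unc-86*, a neuronal transcription factor, had 11.4 to 14.1 in polyQ35-YFP and 28.2 to 37.3 in wild-type samples on *anc-1* RNAi, and 18.8 to 46.6 and 8.11 to 27.97 under EV. None of the 7 passed the interaction test in the fit of all 14 samples, and *R03H10.6* passed it without polyQ35-YFP EV replicate 4, which gave 8 genes.

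A further 422 genes were listed for polyQ35-YFP worms alone and 310 for wild-type worms alone, because the authors dropped genes with few reads in each strain's table, so that a gene missing from 1 table is low there and not shown to be absent. They had few reads, with a median over genes of 2.63 mean reads per sample in polyQ35-YFP worms and 2.67 in wild-type worms. Highest for polyQ35-YFP worms were the chemoreceptor-family genes *srbc-6* (54, 50, 32 and 51 reads on *anc-1* RNAi) and *srt-62* (30, 41, 30 and 46 reads), then *C18G1.6*, *C38D9.13* and *C18H7.1*. *C38D9.13* shares its clone name with *C38D9.2*. For wild-type worms they were *D1086.2* (13, 23 and 21 reads), whose clone neighbour *D1086.1* was among the leading lower genes, then *F08D12.7*, *C03G6.5*, *mig-18* and *C36C5.5*.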

How the data were processed

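Whole worms of both strains were sequenced by CEL-Seq2 on day 6 of adulthood. Per the submitters' processing notes and the study's methods, the authors used cutadapt 1.12, TopHat2 2.1.1 (WBcel235), HTSeq 0.6.1 without molecular identifiers and DESeq2 1.22.2; whether the counting used strand is not given in the sources used here. The deposited signal values are reads divided by a DESeq2 size factor, in a table per strain without genes of mean count under 2. The authors' own fold changes, scores and p-values in the same tables were not used. Dividing each column by its smallest positive value gave whole reads for 100% of values (within 0.01). Reads include PCR copies.

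The 11751 shared genes were joined by identifier, scaled together (median of ratios) and tested with limma 3.58.1 in R 4.3.3 (empirical Bayes, variance trend, pseudocount 1, no covariate). On simulated data for this comparison over 11751 genes, 80% of 2-fold and 99% of 4-fold changes were recovered, of 100 genes each. The changed genes all had a mean value of at least 20, so recovery at lower values was not tested. Noise was drawn for each sample on its own. edgeR 4.0.16 and DESeq2 1.42.0 on recovered reads, scalings, pseudocounts, a low-value filter, the block and omissions were alternatives. Count tests on reads called 87 higher and 172 lower genes in edgeR, and 126 higher and 242 lower in DESeq2.

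Named genes followed 1 rule: the LINC and muscle lists, the 12 called genes of largest difference in each direction, up to 3 called members of each list and direction, stress reporters and genes the study followed, genes called in the interaction, the 5 highest genes of 1 table only, and markers. Genes named outside it are said to be chosen after their values were seen. Members and lists were chosen with earlier results of these data known. Of 12483 identifiers, 12356 matched the names table. *spp-15*, *unc-89*, *clec-83*, *perm-2*, *tni-4*, *abf-2*, *skr-5* and *unc-22* also overlap a gene on the opposite strand. Sequences were not used here.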

Additional observations from a re-analysis of the deposited data

Results flagged for a closer look

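In 3 of the 152 named genes, 1 of the 4 polyQ35-YFP samples on *anc-1* RNAi lay far from the other 3 by Dixon's test, which chance gives in about 1 of 20 groups. *unc-60*, an actin-depolymerizing factor, had 1495 in replicate 4, against 1349 to 1371 in the others. *rol-6*, a cuticle collagen, had 10.2 in replicate 3, against 2.44 to 3.02. *him-3*, of the meiotic chromosome axis, had 234 in replicate 4, against 172 to 176. None of these 3 genes was called between the strains.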

How the results depend on the processing

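None of the 63 called genes that the naming rule gives changed sign in an alternative, while the split of higher against lower calls turned round, and uncalled members and list medians did change sign, with the authors' scaling per strain. The count on *anc-1* RNAi moved by over 1.5 times as follows: 58 higher with scaling by library size, 820 higher with the authors' scaling per strain, 35 higher and 50 lower without the variance trend, and 52 higher and 84 lower in a fit of all 14 samples. Omitting a sample gave 54 to 98 higher and 76 to 182 lower. Under EV the same counts were 86 higher with the authors' scaling, 27 lower by library size, 20 and 23 without the trend, 102 and 96 in DESeq2, and 86 and 88 over all 14 samples, and omissions gave 27 to 159 higher and 18 to 87 lower. The interaction, with 0 genes, gave 1 with TMM scaling, 1 with the authors' scaling, 1 with a pseudocount of 5, 1 in edgeR and 2 in DESeq2, 0 to 8 with a sample omitted (8 without polyQ35-YFP EV replicate 4), and 14 without replicate 4 of polyQ35-YFP worms in both treatments. The genes called under both treatments, 39 and 38, became 65 higher with the authors' scaling, 22 lower by library size, 13 and 15 without the trend and 58 lower in DESeq2, and omissions gave 25 to 57 higher and 16 to 53 lower, lowest without polyQ35-YFP EV replicate 2 or wild-type EV replicate 1 or 3. Where no value above shows it, the cause was not tested. Of 63 named genes called, 38 kept the call in all 7 omissions, 13 of which lost it without the variance trend.

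Deviations from the group means correlated at 0.0714, -0.135 and 0.0413 between same-numbered samples of the strains, over 9438 genes. The highest correlation was 0.228, between polyQ35-YFP replicate 4 and wild-type replicate 2. Whether samples of the strains shared a batch was not tested. With the replicate block the count on *anc-1* RNAi was 106 higher and 142 lower, under EV 132 and 75, called under both treatments 61 higher, and 6 in the interaction, where the block is the repeat within a strain. *anc-1* stayed uncalled in every alternative, between -0.83 and -0.44. Depth limits genes of few reads such as *unc-22* and *cul-6*.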
